A study of Homo sapiens with 6 samples.

Results

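The UGT2B genes encode UDP-glucuronosyltransferases, and 7 of them were followed here: UGT2B4, UGT2B7, UGT2B10, UGT2B11, UGT2B15, UGT2B17 and UGT2B28. Every probe set annotated to a member was taken, which gave 6 of the 54613 probe sets tested. UGT2B15 had 3 of them, and UGT2B4, UGT2B17 and UGT2B28 had 1 each. UGT2B7, UGT2B10 and UGT2B11 had 0 probe sets paired with them in the annotation used and were not analysed here. Each of the 6 probe sets was paired with a single gene, 0 with several. The suffix _x_at, carried by both brighter UGT2B15 probe sets and by that of UGT2B28, marks probe sets with probes that can match other, similar transcripts. The signals of these near-identical genes may therefore overlap, and the value of a single member is uncertain where it rests on such a probe set.

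UGT2B enzymes sit in the membrane of the endoplasmic reticulum and transfer glucuronic acid from UDP-glucuronic acid to small lipophilic molecules, which makes them water-soluble. In prostate cells UGT2B15 and UGT2B17 attach glucuronic acid to dihydrotestosterone and its reduced metabolites, which removes active androgen from the cell. Androgens are known to lower the transcripts of both genes in LNCaP cells.

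The cells were LNCaP, an established, androgen-responsive human prostate cancer line. One group received small interfering RNA (siRNA) against the non-coding RNA PCARNEQ, the other an siRNA against EGFP, a jellyfish-derived fluorescent protein absent from human cells, as control. The groups are called siPCARNEQ and siEGFP, with 3 single-colour arrays each. Sources used here give no siRNA dose or duration and name no separate cultures, so the p-values cover the spread among arrays alone, and that spread may be technical.

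The median intensity was 130.8 on every array, or 7.03 on the log2 scale, and precision was limited by the number of arrays. Array 1 stood apart in both groups: the SD of the log2 difference across probe sets was 0.136 and 0.129 between arrays 2 and 3 of a group, against 0.371 to 0.373 and 0.232 to 0.239 for array 1. The log2 difference between the ACTB control probe sets for the end and the beginning of the transcript, a measure of RNA integrity, was 1.84 on siPCARNEQ array 1 and 0.63 to 0.78 on the other 5 arrays. Of 8 measured luminal prostate markers, 0 lay below the array median, and KLK3, which encodes prostate-specific antigen, lay at 13.51 to 14.12 on the log2 scale over the 6 arrays. The level of PCARNEQ was not analysed here, as the annotation pairs it with no probe set.

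The promoter of UGT2B15 is shown because it is the one promoter in the RefSeq table used of a member that fell. Promoters of UGT2B7, UGT2B10, UGT2B11 and UGT2B15 were found there, 4 of the 7 members. The 250 bases before the UGT2B15 start lie at chr4:68670653-68670902 of GRCh38.p14, on the minus strand, and are written 5′ to 3′ in the sense of the gene. Capitals mark the match to a motif searched.
UGT2B15: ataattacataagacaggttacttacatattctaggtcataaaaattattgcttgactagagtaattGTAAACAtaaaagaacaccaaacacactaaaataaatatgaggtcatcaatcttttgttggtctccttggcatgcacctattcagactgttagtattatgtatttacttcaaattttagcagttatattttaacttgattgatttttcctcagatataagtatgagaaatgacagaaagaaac

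The motifs searched on both strands were the FOXA motif TGTTTAC and the HNF1 half-site GTTAAT. UGT2B15 held TGTTTAC, on the opposite strand as GTAAACA, at bases 183 to 177 before its start. Of all 35116 promoters of the same length, 2.98% held TGTTTAC and 6.23% GTTAAT. In the windows of UGT2B7, UGT2B10 and UGT2B11 neither motif was found as an exact match, and near matches were not counted. Over aligned bases the UGT2B15 window was 78.6% identical to that of UGT2B11, 77.7% to UGT2B10 and 74.3% to UGT2B7. The stretches aligned to the UGT2B15 match are shown to let the family be compared, again with the match in capitals.
UGT2B15: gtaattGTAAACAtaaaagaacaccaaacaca
UGT2B11: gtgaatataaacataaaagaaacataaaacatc
UGT2B10: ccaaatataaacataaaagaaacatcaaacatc
UGT2B7: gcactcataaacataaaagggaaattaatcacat
The run taaacataaaag stood in all 4 stretches. Just before it stood g in UGT2B15 and a in UGT2B7, UGT2B10 and UGT2B11, which the exact search counts as no match. A match to a motif is a description of letters only.

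The comparison asked how transcripts differ when PCARNEQ is targeted. UGT2B15, UGT2B17 and UGT2B28 were lower in siPCARNEQ cells, with log2 changes of -1.36 to -2.45 in their brightest probe sets, while UGT2B4 was dim and did not pass. With limma and an adjusted p below 0.05, 4 of the 6 member probe sets fell and 0 rose (also 0 at an unadjusted p below 0.05), where 8.61% of all probe sets fell and 9.92% rose. In 5 of the 6, every siPCARNEQ array lay below every siEGFP array, which held for 19.1% of all probe sets. The median log2 change was -1.403 over the 6 member probe sets and -0.013 over all probe sets. Without the _x_at probe sets, 1 of the remaining 3 fell, that of UGT2B17. In these bulk samples fewer cells of a type and less RNA per cell cannot be told apart.

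**Figure D1:**
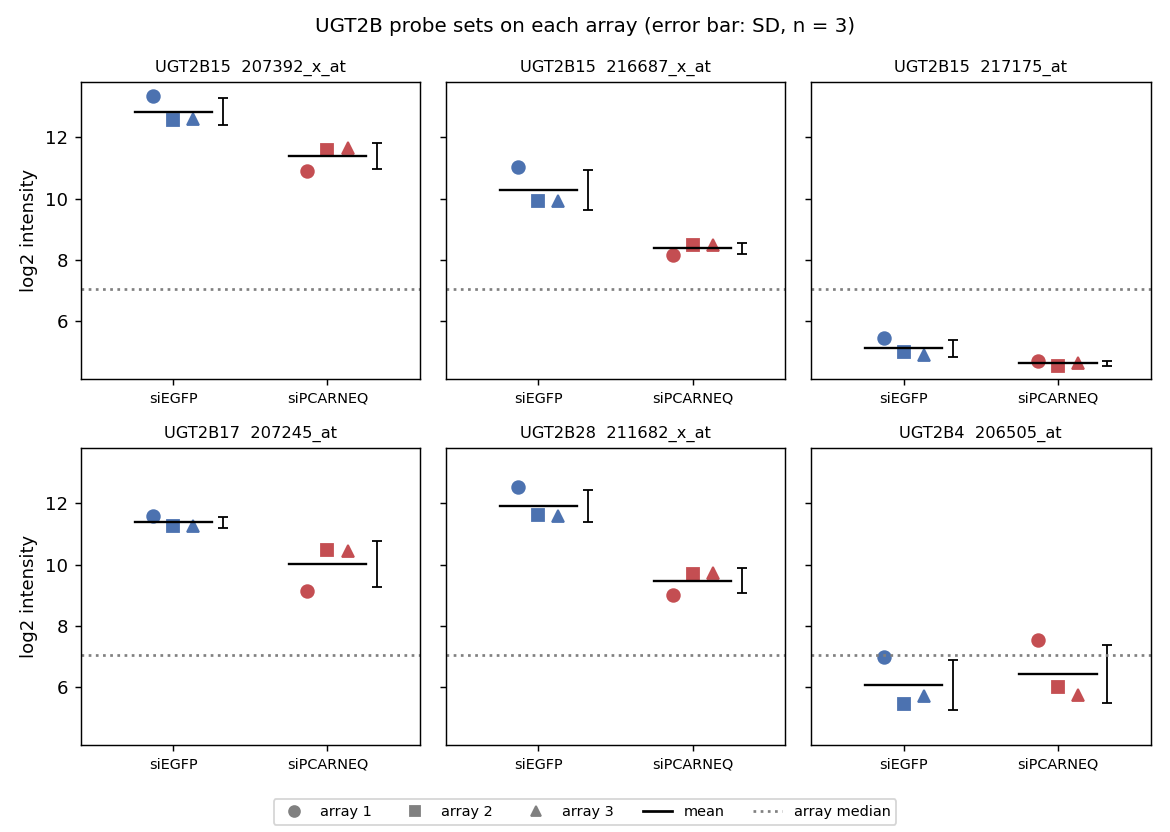
Log2 intensity (vertical axis) of the 6 UGT2B probe sets on each array, by group, with circles for array 1, squares for array 2 and triangles for array 3, a bar at the mean and an error bar of 1 SD (n = 3). The siPCARNEQ arrays lie below the siEGFP arrays for UGT2B15, UGT2B17 and UGT2B28 and overlap with them for UGT2B4. The dotted line is the array median of 7.03.

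UGT2B28 is an enzyme with activity on androgens and other steroids. Its probe set 211682_x_at read 9.0, 9.68 and 9.73 on siPCARNEQ arrays 1 to 3 and 12.53, 11.63 and 11.60 on siEGFP arrays 1 to 3 (log2 intensity). The groups were far apart, with the lowest siEGFP array well above the highest siPCARNEQ array. UGT2B28 fell by 2.45 (SE 0.30, limma adjusted p = 0.00191), from 11.92 ± 0.53 to 9.47 ± 0.41 (SD, n = 3), a level 5.47-fold lower. This was the change with rank 46 from the lowest among the 54613 probe sets. UGT2B28 passed the threshold in each setting that measured it.

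UGT2B15, which conjugates dihydrotestosterone and androstanediol, gave 3 probe sets. The brightest, 207392_x_at, read 10.91, 11.60 and 11.66 in siPCARNEQ and 13.36, 12.56 and 12.59 in siEGFP (log2 intensity). The groups did not overlap, and array 1 was the lowest siPCARNEQ array and the highest siEGFP array. The mean went from 12.84 ± 0.45 in siEGFP to 11.39 ± 0.42 in siPCARNEQ (SD, n = 3). It fell by 1.45 (SE 0.28, limma adjusted p = 0.0117), a level 2.72-fold lower. With arrays 2 and 3 of a group averaged into 1 replicate the change was -1.70, with an adjusted p of 0.0766, and 0.0422 with the array set as a block as well.

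The probe set 216687_x_at of UGT2B15 read 8.15, 8.48 and 8.48 in siPCARNEQ and 11.02, 9.92 and 9.91 in siEGFP (log2 intensity). It fell by 1.91 (SE 0.30, limma adjusted p = 0.00513), and had a change of -2.15 with an adjusted p of 0.056 when arrays 2 and 3 were averaged, and of 0.0222 with the array set as a block as well. The siPCARNEQ arrays were close together here and the siEGFP arrays were spread by array 1. The remaining one, 217175_at, read 4.54 to 4.69 in siPCARNEQ and 4.88 to 5.44 in siEGFP, below the array median on every array, where a signal need not exceed background. Its change was -0.49 (SE 0.15, limma adjusted p = 0.0634), and it passed with the replicate number as a block (adjusted p = 0.029) and with arrays 2 and 3 alone (0.013), but not with arrays 2 and 3 averaged and the array set as a block (0.0656). As the mean of its 3 probe sets, UGT2B15 fell by 1.28 (SE 0.22, limma adjusted p = 0.00562 over genes). So the UGT2B15 probe sets had 1 direction and different sizes.

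UGT2B17 conjugates testosterone, dihydrotestosterone and androsterone. Its single probe set, 207245_at, carries no suffix for shared probes. It read 9.15, 10.48 and 10.43 in siPCARNEQ and 11.60, 11.27 and 11.27 in siEGFP (log2 intensity). The groups did not overlap, and siPCARNEQ array 1 lay far below the other 5 arrays. The mean went from 11.38 ± 0.19 to 10.02 ± 0.75 (SD, n = 3). UGT2B17 fell by 1.36 (SE 0.34, limma adjusted p = 0.0339), a level 2.57-fold lower.

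The UGT2B17 call depended on single arrays, while its change stayed between -0.82 and -1.63 in every setting. It did not pass without siEGFP array 1, 2 or 3 (changes of -1.25, -1.42 and -1.42, limma adjusted p = 0.118, 0.0959 and 0.0954), or with arrays 2 and 3 averaged (-1.63, 0.126, and 0.0559 with the array set as a block as well). Without siPCARNEQ array 1, the array with the high ACTB difference, UGT2B17 fell by 0.93 with an adjusted p of 0.00174. The siPCARNEQ arrays left in that fit, 2 and 3, were close to each other (10.48 and 10.43).

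UGT2B4 is a liver enzyme that conjugates bile acids. Its probe set 206505_at read 7.52, 6.01 and 5.73 in siPCARNEQ and 6.99, 5.45 and 5.70 in siEGFP (log2 intensity). Array 1 was the highest of each group and the groups overlapped. The change was 0.38 (SE 0.56, limma adjusted p = 0.712), the mean over all arrays of 6.23 lay below the array median, and the change was -0.18 without siPCARNEQ array 1 while siEGFP array 1 was kept. The difference was 0.54 between the arrays numbered 1 and 0.29 between the means of arrays 2 and 3, and the adjusted p was 0.0916 once the replicate number entered as a block. Of the 7 hepatocyte markers measured, 0 rose and 0 fell (1 was higher and 0 lower at an unadjusted limma p below 0.05), and their summed intensity on the linear scale was 1200 to 1250 in siPCARNEQ and 972 to 1460 in siEGFP. No marker was listed at 0, but the lowest value of any probe set was 7.35 on the linear scale on every array, so none could be. ALB, which encodes albumin, read 8.83 on siEGFP array 1 and 7.10 to 7.51 on the other 5 arrays. By their mean over all arrays 3 of the 7 lay below the array median. These 3, SERPINA1 (6.55 to 6.68), APOB (5.57 to 5.72) and FGB (4.64 to 5.12), lay below it on every array. TTR lay above it on every array (8.53 to 9.17). The marker that was higher by unadjusted p was CYP3A4, with a change of 0.35 (limma adjusted p = 0.139). The part of array 1 in the UGT2B4 value was not tested.

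The size of the fall differed between array sets, while its direction did not. Between the arrays numbered 1 the log2 difference was -3.53 for UGT2B28, -2.45 for UGT2B15 (207392_x_at) and -2.45 for UGT2B17. Between the means of arrays 2 and 3 it was -1.91, -0.94 and -0.82. With arrays 2 and 3 alone all 3 passed, at limma adjusted p of 0.000158, 0.000412 and 0.000528. These p-values rest on the spread between arrays 2 and 3 of a group, which were close to each other (SD 0.136 and 0.129). With arrays 2 and 3 averaged as 1 replicate UGT2B28 passed (limma adjusted p = 0.0385), and UGT2B15 (0.0766) and UGT2B17 (0.126) did not. With the array set as a block as well, UGT2B28 (0.017) and UGT2B15 (0.0422) passed and UGT2B17 (0.0559) did not. The share of RNA integrity in the larger difference of array 1 was not tested.

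**Figure D2:**
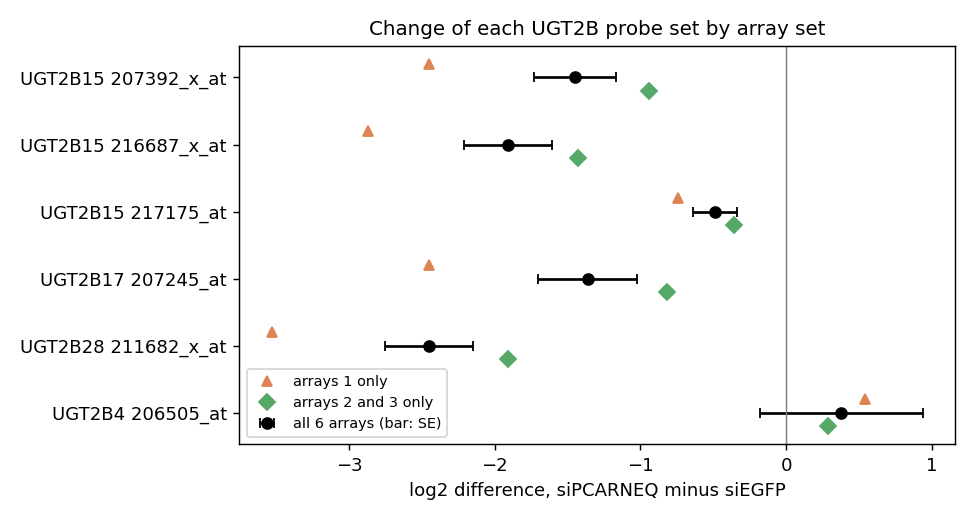
Log2 difference, siPCARNEQ minus siEGFP (horizontal axis), of each UGT2B probe set with all 6 arrays (circle, with SE), between the arrays numbered 1 (triangle) and between the means of arrays 2 and 3 (diamond). The UGT2B15, UGT2B17 and UGT2B28 probe sets lie below 0 in both array sets and further below in array 1, at -3.53 against -1.91 for UGT2B28.

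UGT2B28 was set against the other members within each array, which removes only what both probe sets of a pair share on that array. The fixed pair was UGT2B15 minus UGT2B17, and the pairs with UGT2B28 were added after seeing the data. UGT2B28 minus UGT2B15 was -1.92, -1.92 and -1.94 in siPCARNEQ and -0.83, -0.93 and -0.99 in siEGFP. These differences were nearly constant within a group and did not overlap, and the group means differed by -1.01 (exact permutation p = 0.1, 2-sided, 0.15 adjusted over 3 pairs). UGT2B15 was read here from 207392_x_at alone (change of -1.45), and its probe set 216687_x_at fell further (-1.91). Both probe sets of this pair carry the suffix _x_at, and the part of shared probes in their likeness was not tested. For UGT2B28 minus UGT2B17 the group means differed by -1.09, from 0.54 ± 0.34 to -0.55 ± 0.35 (SD, exact permutation p = 0.1, adjusted 0.15, n = 3). Array 1 still stood apart in this pair, at -0.16 against -0.80 and -0.70 in siPCARNEQ and 0.93 against 0.36 and 0.33 in siEGFP. UGT2B15 minus UGT2B17 was 1.46 ± 0.26 in siEGFP and 1.37 ± 0.34 in siPCARNEQ, a difference of -0.08 that was smaller than the spread between arrays (exact permutation p = 0.5, n = 3). It was 1.76 on array 1 of both groups and 1.12 to 1.32 on the other arrays. This exact permutation test cannot give a p below 0.1 with 3 against 3 arrays, so no pair could pass it.

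**Figure D3:**
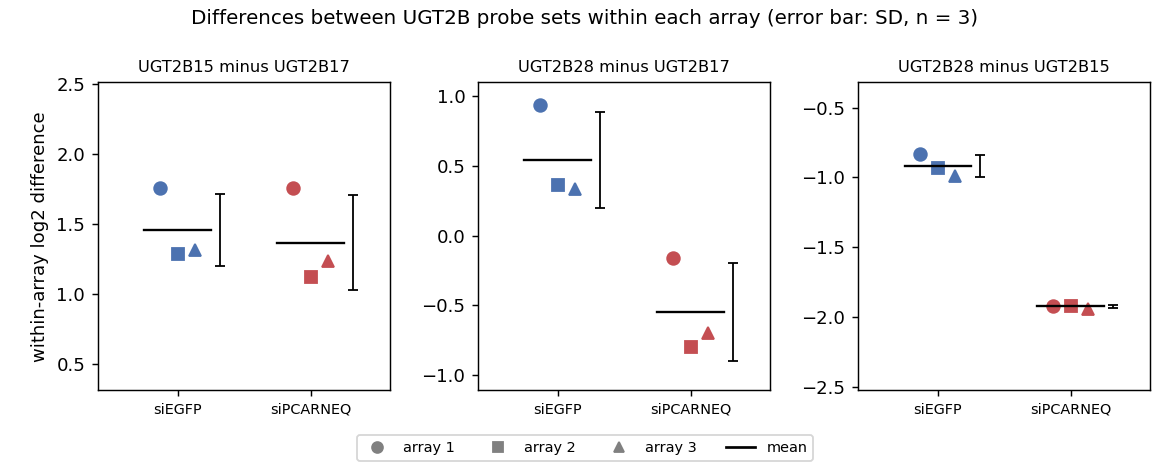
Within-array log2 difference (vertical axis, each panel spanning the same range) between the brightest probe sets of 2 UGT2B genes, by group, with 1 symbol for each array, a bar at the mean and an error bar of 1 SD (n = 3). Both differences that include UGT2B28 are about 1 log2 unit lower in siPCARNEQ (-1.09 and -1.01), and that between UGT2B15 and UGT2B17 overlaps. UGT2B15 is read from 207392_x_at alone, and its probe set 216687_x_at, which fell further, is not shown.

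The genes outside the family whose profiles over the 6 arrays were most like a member's were found by the root mean square difference of log2 values, each centred on its own mean, among 12487 genes whose mean over the 6 arrays lay above the array median. For UGT2B17 these were POLR3G, a subunit of RNA polymerase III (0.1), DPY19L4 (0.159) and MYC, a growth-regulating transcription factor (0.173). Each was lowest on siPCARNEQ array 1 (7.26, 7.74 and 10.32), as was UGT2B17 (9.15), and this array had the high ACTB difference. On siPCARNEQ arrays 2 and 3 POLR3G read 8.62 and 8.63 and MYC 11.22 and 11.19. The part of this 1 array in the likeness was not tested. For UGT2B15 they were TAFA2 (0.184), MYC (0.191) and TNFRSF10D, a decoy receptor for TRAIL (0.193). TAFA2 read 6.44, 7.11 and 6.81 in siPCARNEQ, mostly below the array median, and was included through its siEGFP values of 7.79 to 8.38. For UGT2B28 they were ZMAT3, a zinc finger RNA-binding protein (0.239), F8, which encodes a coagulation factor (0.256), and the choline transporter SLC44A1 (0.31). Among the members the value was 0.252 for UGT2B15 and UGT2B17, 0.506 for UGT2B15 and UGT2B28 and 0.613 for UGT2B17 and UGT2B28. These values describe 6 arrays in 2 groups, and MYC stood among the 3 nearest genes of both UGT2B15 and UGT2B17.

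In the RefSeq table the UGT2B genes stand in 1 row, from UGT2B17 and UGT2B15 over UGT2B10, UGT2B7, UGT2B11 and UGT2B28 to UGT2B4, with UGT2A3 between UGT2B10 and UGT2B7. Of 16 measured genes listed for this neighbourhood, 0 rose and 0 fell with limma (0 higher and 1 lower by unadjusted p below 0.05), where 10.6% of all 19775 genes fell and 13.1% rose. TMPRSS11E, a serine protease gene next to UGT2B17, had a change of -0.45 (adjusted p = 0.0879), and YTHDC1, a reader of methylated RNA further out, of -0.07 (adjusted p = 0.601). Of the 16, 12 lay below the array median, TMPRSS11E among them, where a change may escape measurement. UGT2A3, which lies inside the UGT2B row, was another of these and had a change of -0.03 (adjusted p = 0.884). With the replicate number as a block, with arrays 2 and 3 alone or without siEGFP array 1, 1 of the 16 fell.

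The UGT1A genes encode the other main group of UDP-glucuronosyltransferases, which conjugate bilirubin, phenols and oestrogens, and their transcripts share their final exons. Of 9 probe sets paired with UGT1A genes, 4 rose and 0 fell with limma (0 lower by unadjusted p below 0.05), where 9.92% of all probe sets rose. In 5 of the 9 every siPCARNEQ array lay above every siEGFP array, against 18.6% of all probe sets. Of the 9 probe sets, 7 were shared by 5 to 9 UGT1A genes. The probe set 215125_s_at, shared by 9 genes, read 6.79, 7.86 and 7.66 in siPCARNEQ and 6.11, 6.09 and 5.94 in siEGFP (log2 intensity). The groups did not overlap, and it rose by 1.39 (SE 0.26, limma adjusted p = 0.0106). Its siEGFP arrays, siPCARNEQ array 1 and its mean of 6.74 lay below the array median, so the size of this change is uncertain. The probe sets 204532_x_at, 206094_x_at and 207126_x_at rose by 0.62, 0.60 and 0.59 (adjusted p = 0.00831, 0.0222 and 0.0309), and 208596_s_at had a change of 0.96 (adjusted p = 0.052).

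The 4 other UGT1A probe sets, among them the ones paired with UGT1A1 or UGT1A6 alone, had changes of -0.07 to 0.12 with overlapping groups and levels below the array median. The count of UGT1A probe sets that rose was 5 with the replicate number as a block, 2, 2 and 1 without siEGFP array 1, 2 and 3, and 0 with arrays 2 and 3 averaged (2 with the array set as a block). Among other glycosyltransferases of the superfamily, UGT8, UGT3A1 and UGT2A3 with UGT1A1 and UGT1A6 made 5 single-gene members, of which 0 rose and 0 fell (limma, and 0 by unadjusted p below 0.05).

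UDP-glucuronic acid, the donor of the reaction, is made from UDP-glucose by UGDH. UGDH read 12.12, 12.07 and 12.09 in siPCARNEQ and 11.18, 11.24 and 11.19 in siEGFP (log2 intensity). All siPCARNEQ arrays lay above all siEGFP arrays, array 1 included, and UGDH rose by 0.89 (SE 0.07, limma adjusted p = 0.000356). Of 12 measured genes for donor supply and glucuronide turnover, 3 rose, 0 fell and 9 did not pass with limma (0 lower by unadjusted p below 0.05), where 13.1% of all genes rose and 10.6% fell. The median change was 0.24. CANT1 and ENTPD4, nucleotidases that split UDP released by glycosyltransferases, rose by 0.91 and 1.07 (adjusted p = 0.000602 and 0.00236). GUSB, the glucuronidase that removes glucuronic acid again, had a change of 0.21 (adjusted p = 0.104). The count that rose was 5 with the replicate number as a block, 5 without siPCARNEQ array 1 and 8 with arrays 2 and 3 alone.

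Further enzymes make or modify the androgens that UGT2B enzymes act on. Of 27 measured genes for androgen reduction, oxidation and sulfation, 7 rose, 3 fell and 17 did not pass, with a median change of 0.01, where 13.1% of all genes rose and 10.6% fell. The count that fell was near that share. HSD3B1, which acts in steroid synthesis, rose by 2.29 (SE 0.21, limma adjusted p = 0.000667). HSD17B2, which oxidises testosterone to androstenedione, rose by 1.55 (SE 0.12, adjusted p = 0.000392), and AKR1C3, which runs the reverse step, by 1.54 (SE 0.19, adjusted p = 0.00185). HSD17B2 lay below the array median on every array, HSD3B1 on the siEGFP arrays and siPCARNEQ array 1 (6.57), and AKR1C3 on the siEGFP arrays. The size of these changes is therefore uncertain. SRD5A1, the reductase that makes dihydrotestosterone, was among the 3 that fell, by 0.73 (SE 0.10, adjusted p = 0.00263), and was named after its value was seen, as were the other 2, HSD17B8 (-0.43) and HSD17B10 (-0.30). With arrays 2 and 3 averaged 3 genes rose and 0 fell, 4 rose without siPCARNEQ array 3, and 1 fell without siEGFP array 3 or with averaging and the array set as a block.

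Of 11 transporters for glucuronides and steroids, 1 rose, 1 fell and 9 did not pass, with a median change of -0.02, where 13.1% of all genes rose and 10.6% fell. Both counts were near those shares. ABCC1, an exporter of conjugates, rose by 0.91 (SE 0.07, limma adjusted p = 0.000365). SLCO4A1, an organic anion uptake transporter, fell by 0.38 (SE 0.10, adjusted p = 0.0441) and did not pass without siPCARNEQ array 2 (0.102), without siEGFP array 1, 2 or 3 (0.0612, 0.141 and 0.158), or with arrays 2 and 3 averaged (0.208, and 0.0867 with the array set as a block). With the replicate number as a block, or with arrays 2 and 3 alone, 2 transporters fell.

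Of 14 measured transcription factors known to act on UGT2B genes, 3 rose, 1 fell and 10 did not pass, with a median change of -0.10, where 13.1% of all genes rose and 10.6% fell. FOXA1, whose motif was searched above, read 11.72 to 11.90 in siPCARNEQ and 11.92 to 11.97 in siEGFP, with a change of -0.11 (SE 0.08, limma adjusted p = 0.414). PPARA, a receptor for fatty acids, rose by 1.44 (SE 0.07, adjusted p = 0.000134) and its partner RXRA by 0.65 (adjusted p = 0.00274). AHR, a receptor for aromatic compounds, fell by 0.75 (adjusted p = 0.00503), with siPCARNEQ arrays below the array median. With arrays 2 and 3 averaged 1 factor rose and 0 fell, while 2 fell with the replicate number as a block or without siPCARNEQ array 1, and 3 fell with arrays 2 and 3 alone.

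Genes known to respond to androgen were read from the same fit. Of 17 measured androgen-induced genes, 7 rose, 1 fell and 9 did not pass, where 13.1% of all genes rose and 10.6% fell. The median change was 0.49, beside -0.014 over all genes. KLK3 rose by 0.51 (SE 0.07, limma adjusted p = 0.0032), and NDRG1, MAF and TMPRSS2 by 1.42, 1.51 and 1.15. The member that fell, named after its value was seen, was STEAP4 (-0.98). Of 8 other genes listed as androgen-repressed, 1 rose and 0 fell with limma (2 higher and 0 lower by unadjusted p below 0.05), a count near the same shares of all genes. The riser was DDC, which encodes aromatic amino acid decarboxylase, at 1.32 (SE 0.23, adjusted p = 0.00803). With arrays 2 and 3 averaged 3 induced and 0 repressed genes rose, and 12 induced genes rose with the replicate number as a block or with arrays 2 and 3 alone. With arrays 2 and 3 alone, or without siPCARNEQ array 1, 2 repressed genes rose.

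**Figure D4:**
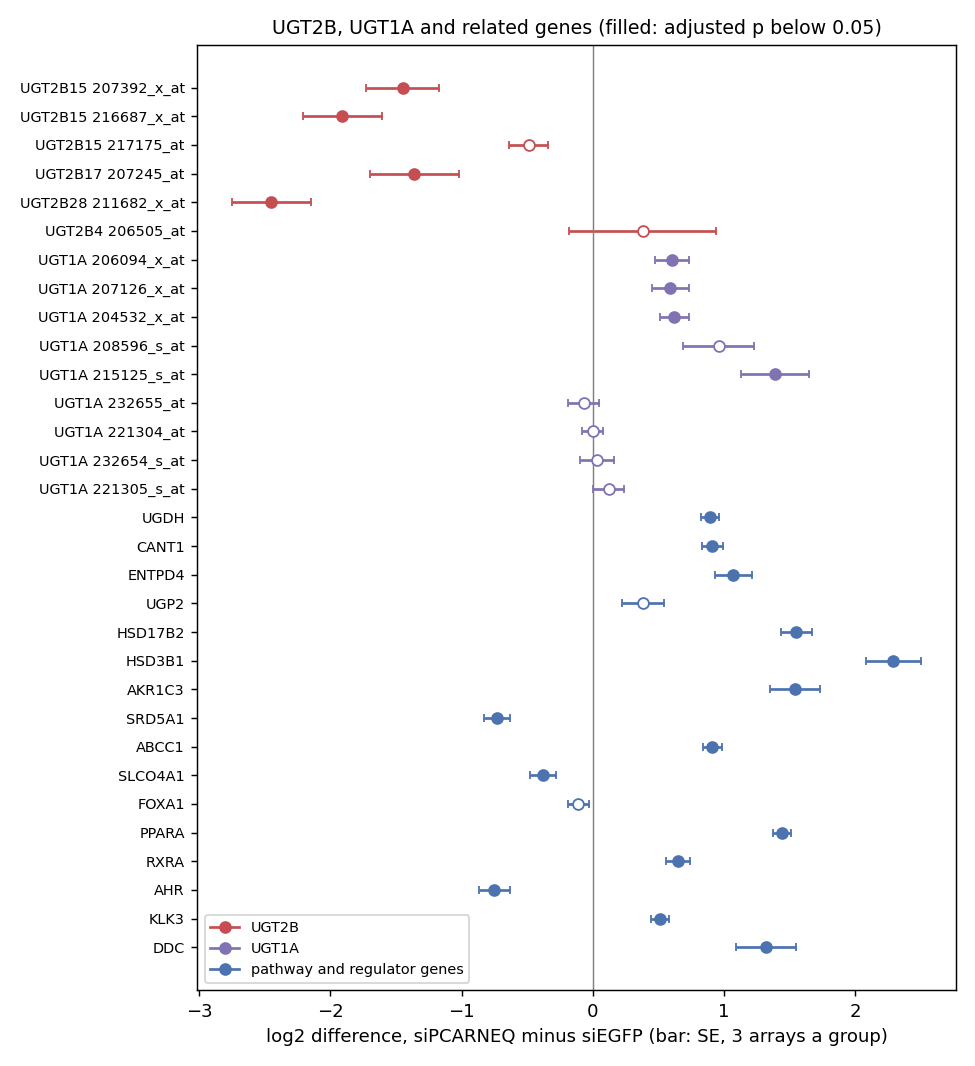
Log2 difference, siPCARNEQ minus siEGFP (horizontal axis, bars are SE, 3 arrays a group), for the UGT2B probe sets, the UGT1A probe sets and named genes of the pathway and its regulators, with filled points for an adjusted p below 0.05. UGT2B28 lies lowest at -2.45 and HSD3B1 highest at 2.29, and the UGT1A points that are filled lie above 0.

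Markers of other cell types were read from the same comparison, in which 13.1% of all genes rose and 10.6% fell. Of 4 basal markers 1 rose, of 5 neuroendocrine markers 1 rose, of 6 fibroblast and smooth muscle markers 2 rose and 1 fell, and of 4 immune and endothelial markers 0 rose and 0 fell (limma, and 0 by unadjusted p below 0.05). Of 8 luminal markers 6 rose and 0 fell. The part of these changes in the UGT2B values was not tested.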

How the data were processed

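Total RNA was extracted with Trizol, purified on a column and labelled as biotinylated cRNA for 1-colour Affymetrix arrays, per the labels' protocols. The authors deposited linear intensity values, 1 for each probe set, made with RMA, per the submitters' processing notes. RMA includes a background correction and a quantile normalization. When each array's log2 values were sorted, no rank differed between arrays by more than 0.0049, so differences in total signal between arrays were out of reach. Sources used here do not give a genome build or probe file for the array.

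Log2 was taken with no pseudocount, and 62 control probe sets were left out. All 54613 other probe sets were fitted with limma 3.58.1 (lmFit and eBayes, R 4.3.3), 2-sided, with no covariate and a Benjamini-Hochberg threshold of 0.05. The fit was tried on simulated data with independent noise on each array. Such data lack the likeness of arrays 2 and 3, so its effect on the calls could not be seen there. Genes outside the family were read from their brightest probe set paired with 1 gene. Differences between members were compared with an exact permutation test over arrays. All members were named, with the up to 3 passing genes of smallest p from each list, defining genes chosen by role, and the 3 genes of most similar profile for each member above the array median. Exceptions are marked in the text, and some planned items are not reported here. The members and lists were chosen with earlier results of these data known.

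The labels number the arrays 1 to 3 in each group. Same-numbered arrays deviated together from their group means, with correlations of 0.47, 0.3 and 0.34, each over 0.1. On that basis alone they were taken as pairs in the replicate block, since no label states a shared day. The main fit took all arrays as unpaired. Array 1 stood apart in both groups, and its part in all of these correlations was not tested. The replicate block, other normalizations, filters and left-out arrays were alternatives. Motifs were searched on both strands of the 250 bases before each RefSeq gene start (GRCh38.p14). Figures were drawn with matplotlib 3.10.9.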

Additional observations from a re-analysis of the deposited data

How the results depend on the processing

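The count of 4 member probe sets that fell was 5 with the replicate block and 5 with arrays 2 and 3 alone, and 3 to 4 when each array was left out in turn. It was 1 with arrays 2 and 3 averaged as 1 replicate, 3 with the array set as a block as well, and 1 without _x_at and _s_at probe sets, where fewer probe sets are counted by construction. The count of 3 members that changed by their brightest probe set was 1 with arrays 2 and 3 averaged, 3 with the replicate block and 2 to 3 with an array left out. No member probe set rose under any setting. The change of UGT2B4 ranged from -0.18 to 0.85 with an array left out and was negative without siPCARNEQ array 1, where the adjusted p was 0.812. For the other 5 member probe sets the direction held in every setting that measured them. With the replicate block 217175_at of UGT2B15 passed, and no other call of a member changed. A further median centring or quantile normalization, a robust trend in the spread, log2(value + 16) and leaving out probe sets below the median changed no call of a member they measured. The last of these left out 217175_at and UGT2B4. Averaging leaves very few degrees of freedom, and the cause of the lost calls was not tested. The planned pairs with UGT2B10 and UGT2B11 were not run, as these genes had no probe set to read.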
